A study of Rattus norvegicus with 6 samples.

Results

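Keratins of simple and of non-keratinised stratified epithelium were followed as a family of 8 genes: Krt4, Krt13, Krt19, Krt7, Krt23, Krt8, Krt18 and Krt20. The family was set by gene name, with earlier results of these data known. A probe set counted when the array annotation gave it 1 of these symbols alone. All 8 genes had a probe set, 1 each, among 14217 genes named in this way, so no second probe set could be compared for any of them. The tissues were peri-implant soft tissue and healed oral mucosa of male Sprague Dawley rats. Both upper first molars had been removed at 4 weeks of age. For peri-implant soft tissue, a titanium alloy implant had been placed in the left socket and the tissue around it was taken 4 weeks after surgery. For oral mucosal tissue, the right socket had received no implant and the mucosa that healed over it was taken at the same time. Each group had 3 arrays, side of the mouth and implant cannot be told apart, and no label states that replicate arrays stand for different animals, so that p-values reflect only the spread among these arrays, part of which may be technical.

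Keratins form the intermediate filaments of epithelial cells. Every filament is built from pairs of a type I and a type II chain, so a cell needs both. Krt4, Krt7 and Krt8 are type II chains, and Krt13, Krt18, Krt19, Krt20 and Krt23 are type I chains. Krt8 and Krt18 are the first pair of simple epithelia, Krt7 and Krt19 are typical of ducts and other glandular linings, and Krt4 and Krt13 form the suprabasal pair of non-keratinised mucosa. Krt19 is also a known marker of the junctional epithelium that attaches gingiva to the tooth. The masticatory mucosa of the rat is largely keratinised, with Krt5 and Krt14 in its basal layer and Krt1 and Krt10 above it.

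The rat keratin genes of the RefSeq annotation lay in 2 groups, with 27 genes on chromosome 7 and 27 on chromosome 10. The 3 type II members and Krt18 lay on chromosome 7, and the other 4 type I members on chromosome 10. Krt23 and Krt20 were direct neighbours there, and so were Krt8 and Krt18 on chromosome 7. The 250 bases before the annotated gene start are shown for Krt4, the member with the largest change, and for the neighbours Krt23, which changed, and Krt20, which did not pass the test. They come from RefSeq, build GRCr8, on the minus strand, at chr7:134930714-134930963 for Krt4, chr10:84946930-84947179 for Krt23 and chr10:84890286-84890535 for Krt20. Capitals mark matches to the motifs named after the sequences.
Krt4: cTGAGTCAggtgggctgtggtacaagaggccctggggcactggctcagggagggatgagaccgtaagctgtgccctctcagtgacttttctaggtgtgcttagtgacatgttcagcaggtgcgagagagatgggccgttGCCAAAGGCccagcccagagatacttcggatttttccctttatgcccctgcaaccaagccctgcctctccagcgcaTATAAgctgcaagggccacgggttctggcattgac
Krt23: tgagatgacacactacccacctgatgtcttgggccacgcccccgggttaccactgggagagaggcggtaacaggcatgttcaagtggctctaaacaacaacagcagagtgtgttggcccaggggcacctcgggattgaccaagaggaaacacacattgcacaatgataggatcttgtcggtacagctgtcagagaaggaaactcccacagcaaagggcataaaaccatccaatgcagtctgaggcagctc
Krt20: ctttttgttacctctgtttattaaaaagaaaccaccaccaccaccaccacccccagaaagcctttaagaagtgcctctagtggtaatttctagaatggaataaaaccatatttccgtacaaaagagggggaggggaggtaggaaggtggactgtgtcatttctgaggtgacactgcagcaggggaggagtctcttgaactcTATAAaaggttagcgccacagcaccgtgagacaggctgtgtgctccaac
The motifs were a TATA box (TATAA, sense strand), AP-1 (TGANTCA), the GC box (GGGCGG) and AP-2 (GCCNNNGGC), the last 3 on both strands and none of them overlapping in the windows shown. In Krt4 the TATA box began at position -35 relative to the gene start, AP-2 at -111 and AP-1 at -249. Krt20 held only a TATA box, at -49, and Krt23 held none of the 4. Among all 33469 such windows of the table, 16.7% had the TATA box, 6.34% AP-1, 30.5% the GC box and 12.6% AP-2. These matches describe letters and not binding.

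Across the arrays the median log2 signal lay between 6.62 and 6.78, and Pearson correlations over 18625 probe sets were 0.975 to 0.981 within peri-implant tissue, 0.965 to 0.974 within mucosa and 0.931 to 0.945 between the tissues. Of 10585 genes tested, 1606 were higher in peri-implant tissue (15.2%) and 1161 lower (11.0%), 26.1% in either direction, by limma with Benjamini-Hochberg adjustment and a threshold of 0.05. By probe set, 12.0% were higher and 10.4% lower, and 5.38% of genes were both higher and changed at least 2-fold. A signal below 5.90, the 40th percentile of all single values, is called dim here.

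Krt4, Krt7, Krt23 and Krt19 were higher in peri-implant soft tissue, between 3.79-fold and 8.70-fold. Krt13, Krt8 and Krt20 did not pass the test, and Krt18 lay below the signal filter and was not tested. Thus 4 of 8 members, 7 of them tested, were called higher and 0 lower by limma. At an unadjusted p under 0.05 the number lower was also 0. Among all genes tested, 15.2% were higher and 11.0% lower. All 4 higher members were among the 5.38% of genes higher by at least 2-fold. The members were chosen with earlier results of these data known, so these counts describe the family and do not test it. The median difference of the 8 members was 0.96 on the log2 scale, and it was 0.02 over all 14217 genes. In bulk tissue, more cells that express a gene and more of its RNA per cell cannot be told apart.

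**Figure D1:**
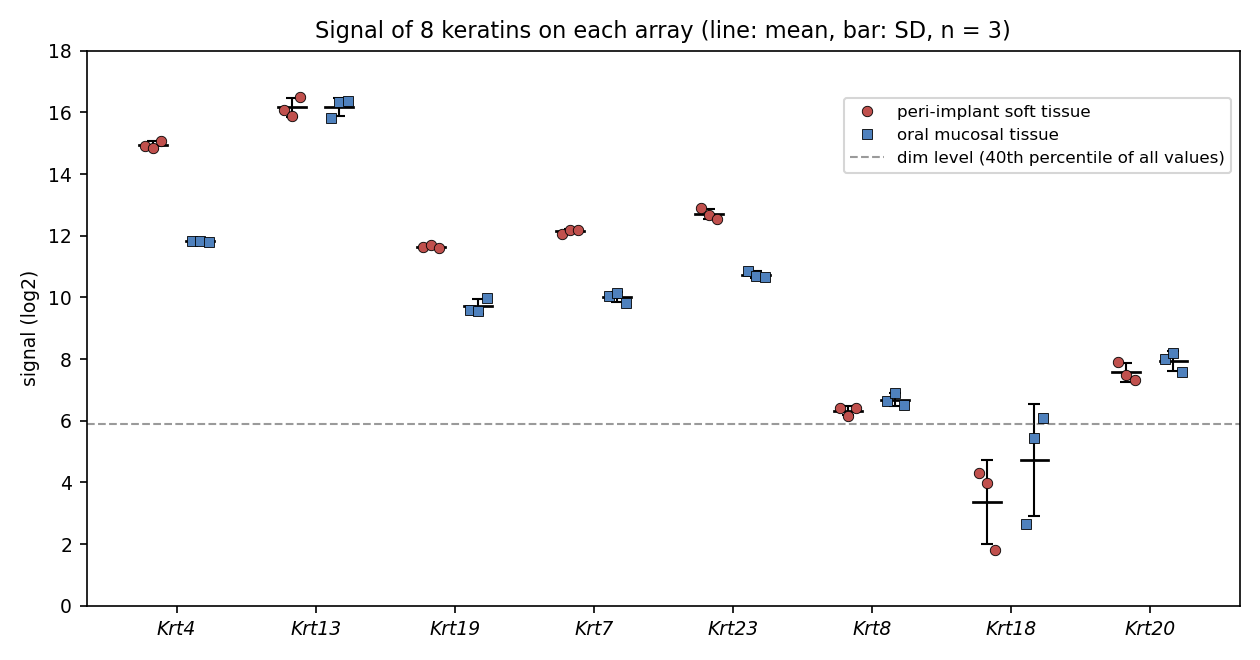
Signal of the 8 keratins (log2, vertical axis) on each array, with circles for peri-implant soft tissue left of squares for oral mucosal tissue. Lines are means and bars SD over 3 arrays, and the dashed line is the dim level of 5.90. Krt4, Krt19, Krt7 and Krt23 separate the tissues, Krt13 sits near 16 in both, and Krt18 lies mostly below the dim level.

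Among the keratins of non-keratinised stratified epithelium, Krt4 had log2 signals of 14.91, 14.85 and 15.09 in peri-implant tissue, against 11.83, 11.84 and 11.80 in mucosa. Every peri-implant array was about 3 log2 units above every mucosal array. The difference was 3.12 (SE 0.08, 95% interval 2.95 to 3.30, limma adjusted p = 2.96e-11), or 8.70-fold, and it ranked 45 among the 10585 genes tested, counted from the largest rise. Krt4 lay at the 99.5th percentile of single signals in peri-implant tissue and at the 95.5th percentile in mucosa, so it was already bright without an implant.

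Krt13, the type I partner of Krt4, had log2 signals of 16.09, 15.89 and 16.51 in peri-implant tissue and 15.82, 16.32 and 16.35 in mucosa. The groups overlapped, and the means were 16.16 ± 0.32 in peri-implant tissue and 16.17 ± 0.30 in mucosa (SD over 3 arrays each), with a limma adjusted p of 0.991. The 95% interval of the log2 difference, -0.38 to 0.38, does not reach the size of the Krt4 change. Krt13 was among the brightest signals on every array. It lay 0.17, 0.29 and 0.30 log2 units below the highest signal of its array in peri-implant tissue, and 0.42, 0.68 and 0.56 below it in mucosa. On this relative scale the groups did not overlap, with Krt13 nearer to the top in each peri-implant array. Under quantile normalisation, which sets the arrays to one distribution, Krt13 was higher by 0.19 and passed (limma adjusted p = 0.00620, over a range of 0.00620 to 0.994 across its alternatives). Whether the array still responded in proportion at such signals was not tested.

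For the keratins of glandular and junctional linings, Krt7 had signals of 12.06, 12.18 and 12.18 in peri-implant tissue, against 10.06, 10.15 and 9.83 in mucosa. No mucosal array came within 1 log2 unit of a peri-implant one. Krt7 was higher by 2.12 (SE 0.09, 95% interval 1.93 to 2.32, limma adjusted p = 2.68e-09), or 4.36-fold. Krt19, a chain with a very short tail that is known from ducts and from junctional epithelium, had 11.62, 11.69 and 11.60 in peri-implant tissue, against 9.60, 9.55 and 10.00 in mucosa. Its spread was wider in mucosa, where array 3 was the high one, with an SD of 0.05 in peri-implant tissue and 0.24 in mucosa. Krt19 was higher by 1.92 (SE 0.11, 95% interval 1.69 to 2.16, limma adjusted p = 4.47e-08), or 3.79-fold.

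Krt23, a type I keratin known from glandular and colonic epithelia, had signals of 12.89, 12.67 and 12.56 in peri-implant tissue and 10.86, 10.69 and 10.65 in mucosa. The groups did not overlap, and the difference was 1.97 (SE 0.09, 95% interval 1.77 to 2.17, limma adjusted p = 7.11e-09), or 3.92-fold. The 95% intervals of Krt7, Krt23 and Krt19 overlapped one another and lay below that of Krt4. The differences between these genes' changes were not tested.

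Krt8, the type II keratin of simple epithelia, stood just above the dim level on all 6 arrays. Its signals were 6.40, 6.15 and 6.41 in peri-implant tissue, against 6.64, 6.91 and 6.51 in mucosa. All 3 peri-implant values lay below the mucosal ones, but the difference of -0.36 did not pass (SE 0.30, 95% interval -1.02 to 0.29, limma adjusted p = 0.440). Groups that did not overlap were common over all genes tested, with 24.0% higher and 17.9% lower in peri-implant tissue. Among the members they were Krt4, Krt7, Krt19 and Krt23 on the higher side and Krt8 on the lower side.

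Krt18, the partner of Krt8, was dim in both tissues on average. Its signals were 4.30, 3.97 and 1.79 in peri-implant tissue, against 2.66, 5.45 and 6.08 in mucosa, and 1 of the 6 values, that of mucosal array 3, was above the dim level. Fitted without the signal filter, its difference of -1.38 had a 95% interval of -3.80 to 1.04 (limma adjusted p = 0.533). With values below the dim level raised to it, the difference was -0.06. A change of Krt18 among signals this dim was therefore not measurable, in either direction, and no peri-implant array showed it above the dim level.

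Krt20, a type I keratin of intestinal, urothelial and Merkel cells, had signals of 7.91, 7.47 and 7.32 in peri-implant tissue and 8.01, 8.21 and 7.57 in mucosa. The groups overlapped, and the difference of -0.37 did not pass (SE 0.23, 95% interval -0.87 to 0.13, limma adjusted p = 0.299). For both Krt8 and Krt20 the interval leaves out a rise of the size seen in Krt7, Krt19 and Krt23. Of the 8 members, the first pair of simple epithelium was thus dim or close to it, and the changed members were 2 type II and 2 type I chains.

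**Figure D2:**
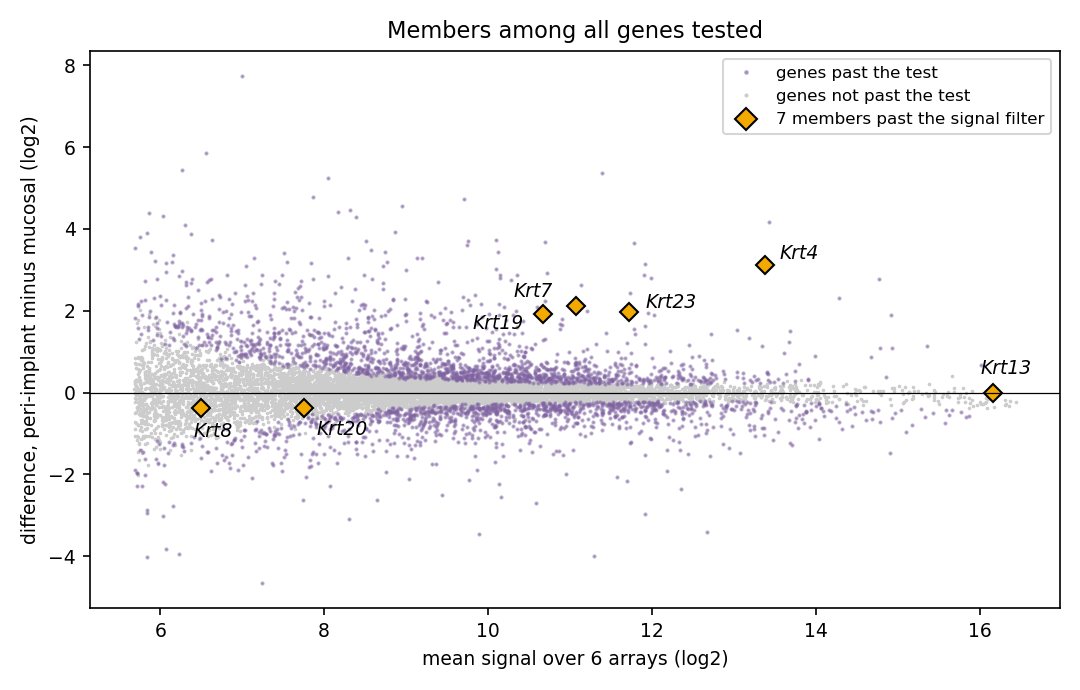
Difference (peri-implant minus mucosal, log2, vertical axis) against mean signal over 6 arrays (log2, horizontal axis) for the 10585 genes tested, with the 7 members past the signal filter as diamonds. Krt4, Krt7, Krt23 and Krt19 lie among bright genes with differences of 1.92 to 3.12, and Krt13 lies at the bright end near 0.

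The type II and type I partners were then set against each other within each array. Such a log ratio does not depend on scaling between arrays, and its level has no meaning because probe sets differ in sensitivity, so only its difference between tissues is read. The log ratio of Krt4 to Krt13 was -1.19, -1.04 and -1.42 in peri-implant tissue, against -3.99, -4.48 and -4.55 in mucosa. It was higher by 3.13 in peri-implant tissue, and the groups did not overlap (exact permutation p = 0.1, two-sided, the smallest that 20 arrangements allow, and 0.3 adjusted over 3 pairs). Nearly all of that came from Krt4, and the ratio rests on Krt13 signals near the top of the array. For Krt7 over Krt19 it was 0.44, 0.48 and 0.58 in peri-implant tissue, against 0.46, 0.60 and -0.16 in mucosa, a difference of 0.20 (exact permutation p = 0.7, adjusted p = 0.7). Mucosal array 3 was the only low one, and without it the difference was -0.03. For Krt8 over Krt18 it was 2.10, 2.18 and 4.62 in peri-implant tissue, against 3.98, 1.45 and 0.42 in mucosa, a difference of 1.01 (exact permutation p = 0.5, adjusted p = 0.7). It rests on the dim values of Krt18, and it was 0.19 to 2.03 with 1 array left out and -0.30 with the floor, that is with dim values raised to the dim level.

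**Figure D3:**
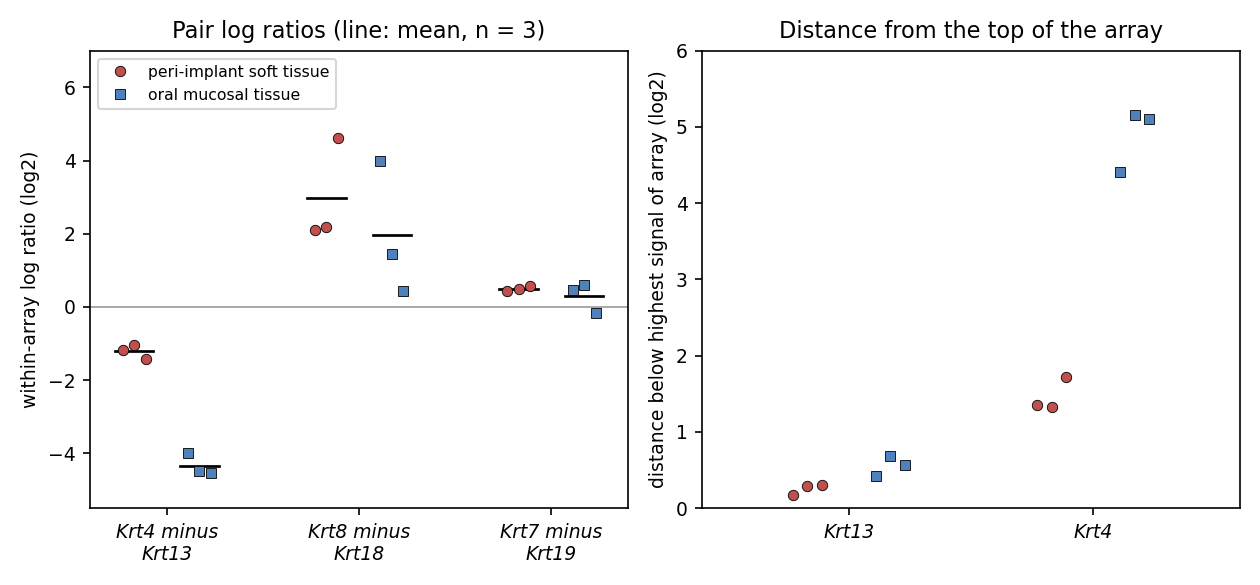
Left, log2 ratio of type II to type I partner on each array for 3 pairs, with peri-implant circles left of mucosal squares and the mean as a line (n = 3). Right, distance of Krt13 and Krt4 below the highest signal of their array (log2). The Krt4 to Krt13 ratio separates the tissues by 3.13, and Krt13 lies 0.17 to 0.68 below the top.

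The 17 other keratins on the array gave the family a measure for comparison, and 15 of them passed the signal filter. Of these, 5 were higher, 3 lower and 7 did not pass, with a median difference of -0.05 over all 17. The higher ones were Krt36 and Krt15 (differences 5.37 and 3.65), Krt86 (2.85), Krt33b (1.49) and Krt1 (1.14). Krt5, the type II keratin of the basal layer, fell by 0.50 (limma adjusted p = 0.00173), Krt24 by 0.43 and Krt78 by 0.37. Krt14 and Krt10, the type I chains of the basal and suprabasal layers, had differences of -0.23 and -0.32 and did not pass. Krt14 lay 0.59 to 0.82 and Krt10 0.15 to 0.28 log2 units below the highest signal of their arrays. Whether the top of the array limits them was not tested. In the basal list of 4 keratins 1 was higher and 1 lower, and in the suprabasal and wound list, 4 tested, 1 was higher and 2 lower (0 lower without the variance trend, and 1 without peri-implant array 1 or 2 or mucosal array 2 or 3 and with arrays centred on shared epithelial genes).

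Neighbouring genes, looked up after the values had been seen, did not share one pattern. Krt15 lies between Krt13 and Krt19 on chromosome 10, and its difference was 3.65 where theirs were -0.0038 and 1.92. Krt36, on the other side of Krt13, had 5.37, so that Krt13 stood between the 2 keratins with the largest rises on the array. Krt23 rose by 1.97 beside Krt20, which did not pass.

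**Figure D4:**
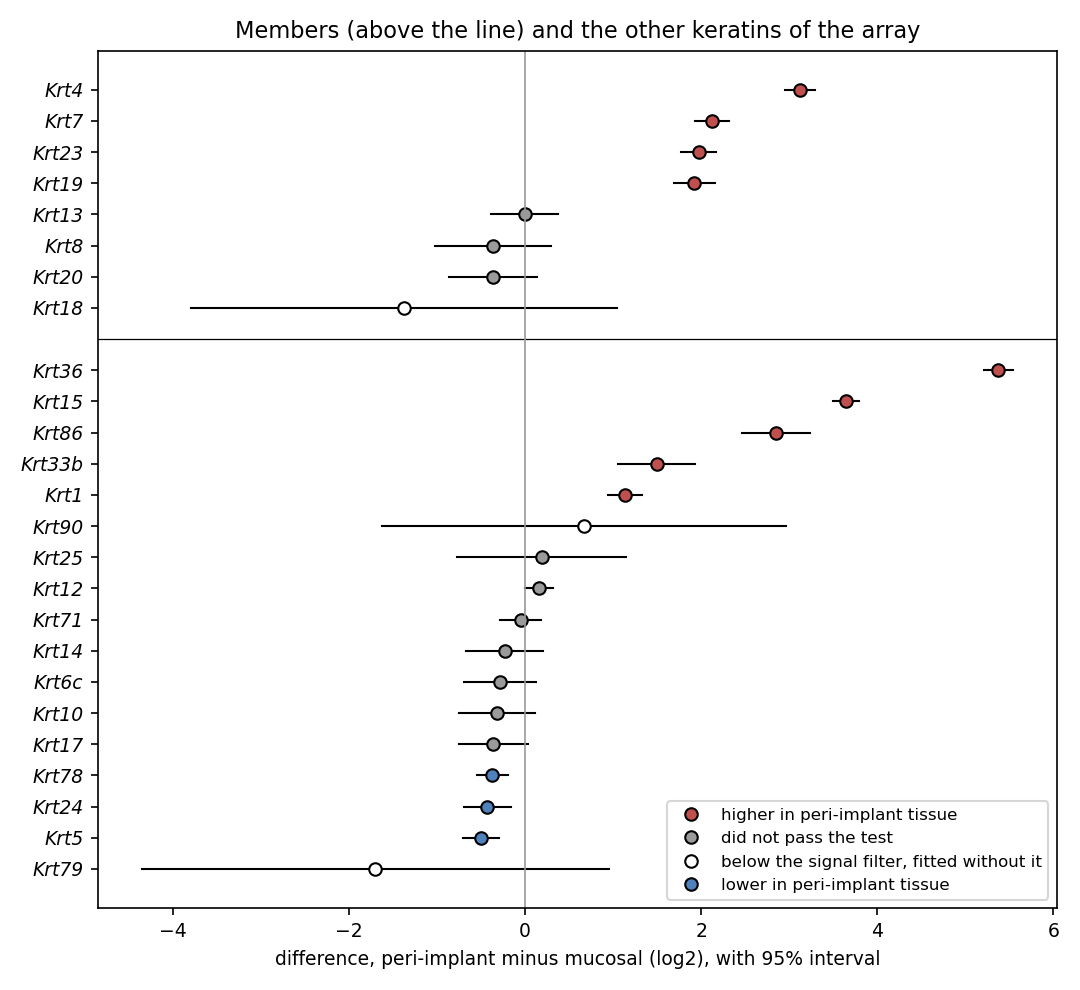
Difference (peri-implant minus mucosal, log2) with its 95% interval for the 8 members above the line and the 17 other keratins below it, coloured by call. Open circles are genes below the signal filter. The 4 higher members lie between 1.92 and 3.12, and among the others Krt36 reaches 5.37 and Krt5 lies at -0.50.

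Other genes of simple and glandular epithelium were followed from a separate list of 23 on the array. Of the 17 tested, 12 were higher, 2 lower and 3 did not pass, with a median of 1.39 over all 23. With the filter at the 60th percentile, which left fewer of them tested, 5 were higher. Among the 12, Lcn2, Cldn10, Tspan1 and Agr2 were dim in mucosa, with mean log2 signals of 3.64, 3.86, 3.67 and 5.32. They were past the signal filter only through their peri-implant signal, so the filter alone fixed the direction of their difference. Ceacam1, an adhesion molecule of luminal epithelial surfaces, was higher by 2.09 (SE 0.08), Elf3, an epithelial ETS factor, by 2.02 (SE 0.09), Wfdc2, a secreted protease inhibitor family protein, by 2.26 and Tspan8, a tetraspanin, by 1.46. Epcam, the adhesion molecule of simple epithelium and of many stratified ones, was higher by 0.42. Clu and Ezr fell by 0.58 and 0.43. Muc1, Foxa1, Spdef, Cdx2 and Vil1, which are typical of glandular or intestinal epithelium, were dim in both tissues. The summed linear signal of this list was 36799 to 39223 in peri-implant tissue, against 30282 to 33726 in mucosa.

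For non-keratinised stratified epithelium, 8 of 17 tested genes were higher, 3 were lower and the other 6 did not pass, and the median over all 18 was 0.23. Rhcg, an ammonium transporter, was higher by 1.78, the membrane mucin Muc4 by 3.28 and Sprr3, a cornified envelope precursor of internal epithelia, by 1.14. Upk1b, a uroplakin that was dim in mucosa, was higher by 4.35 with dim values raised to the dim level. Over its alternatives the difference was 4.02 to 5.04. Upk1b was past the signal filter only through its peri-implant signal, since its mean log2 signal in mucosa was 5.47. Tgm3, Gpx2 and Ecm1 fell by 0.58, 0.49 and 0.45. In the junctional epithelium list 7 of 10 were higher and 3 lower, but the higher ones were mainly the inflammatory genes Il1b, Cxcl2, Saa3 and Sectm1b, with differences of 3.72, 3.43, 4.73 and 4.47, and leukocytes also express several of them. The lower ones were the laminin genes Lamb3 and Lama3 and the integrin gene Itga6, which fell by 1.10, 1.24 and 1.03, while another integrin gene, Itgb6, was higher by 0.43. Odam and Amtn, the defining secreted proteins of that epithelium, had no probe set of their own and were not analysed here.

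Genes shared by all stratified epithelium stood beside these as a measure of epithelial signal. Of 11 tested, 4 were higher and 5 lower, with differences of at most 0.51 in size and a median of -0.38. Without the variance trend 0 were higher and 2 lower. The higher genes numbered 2 with arrays centred on their median and with the second highest probe set. The lower ones numbered 2 without the filter, with the floor, and without peri-implant array 1 or 2 or mucosal array 2 or 3, and 3 with the mean of probe sets and with array weights. Cdh1, E-cadherin, was higher by 0.34, but it no longer passed when the variance trend was dropped (limma adjusted p = 0.0532) or with the mean of its probe sets, where the difference was 0.01 (limma adjusted p = 0.996). Tp63, the p63 factor of basal cells, had a difference of 0.09 and did not pass. That result changed in 2 of 19 alternatives. Over all of them the Tp63 difference was 0.04 to 0.63 and its limma adjusted p 0.00780 to 0.762. Dsp, Perp and Sfn of this list lay 0.32 to 1.24 log2 units below the highest signal of their arrays. Whether the top of the array limits these genes was not tested. With each array centred on the mean of these 11 genes, a setting added after the data had been seen, the differences of Krt4, Krt7, Krt23 and Krt19 were 3.24, 2.24, 2.09 and 2.04. That centring moved the median of all genes by 0.12 and the share of higher genes among all calls to 75.1%, against 58% as deposited.

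Genes whose proteins link or modify keratin filaments formed a further list. Of 15 tested, 1 was higher and 8 lower (5 without the variance trend), with a median of -0.38 over 16. Jup, Pkp1 and Sfn, 3 of the 8, are also in the shared stratified epithelium list. Eppk1, epiplakin, a keratin-binding plakin, fell by 2.35 (SE 0.07), Dst by 1.23, the plakophilin Pkp3 by 0.80 and the cytolinker Plec by 0.51. The higher gene was Casp6, a caspase that can cleave type I keratins, with 1.02. Desmoplakin (Dsp), which anchors filaments at desmosomes, and the envelope plakins Ppl and Evpl did not pass, with differences of -0.38, 0.10 and 0.04.

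**Figure D5:**
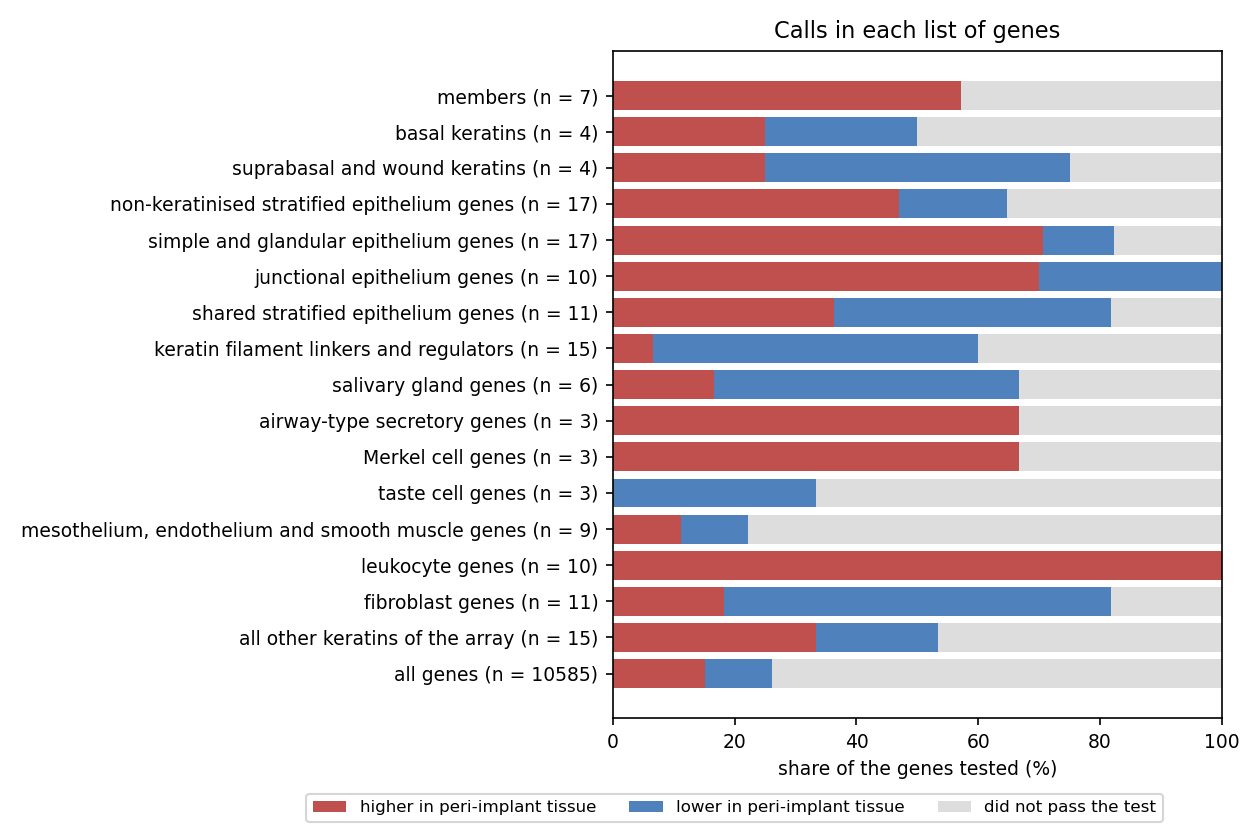
Share of the genes tested (horizontal axis, %) that were higher, lower or did not pass in peri-implant against mucosal tissue, for the members, each list and all genes, with the number tested beside the name. In the members 4 of 7 tested were higher and 0 lower, and in the filament linkers 8 of 15 were lower.

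Markers of other cells that express these keratins, or that such samples could hold, are given beside the members. All 10 leukocyte genes tested rose, Ptprc (CD45) by 1.69, with a median of 1.99 over 11 and a summed linear signal of 35244 to 36965 in peri-implant tissue, against 9923 to 10112 in mucosa. Among the 10, Cd3e was dim in mucosa (mean log2 signal 3.92) and past the signal filter only through its peri-implant signal (7.45). In the fibroblast list 7 of 11 were lower, Col1a1 with -0.83 among them, and 2 higher (0 without the variance trend and 1 with arrays centred on their median), at a sum of 57081 to 58434 in peri-implant tissue, against 89492 to 98351 in mucosa. Of 9 endothelial, mesothelial and smooth muscle genes tested 1 rose and 1 fell, at a sum of 1291 to 1417 in peri-implant tissue and 1134 to 1227 in mucosa, and neither call held throughout. Kdr (0.70) was lost in 6 of 17 alternatives, among them without any 1 of the peri-implant arrays or mucosal array 2 or 3. Its lowest difference was 0.14. Acta2 (-0.66) was lost in 9 of 19 alternatives. These included the fits without the variance trend, without the filter, and without peri-implant array 2 or 3 or mucosal array 2 or 3. The part of these cells in the keratin differences was not tested.

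Salivary gland genes, whose ducts carry Krt7 and Krt19, were dim in both tissues for 11 of 18. Of 6 tested, 1 was higher and 3 lower (1 lower with the filter at the 60th percentile), and the sum was 18331 to 18675 in peri-implant tissue, against 19967 to 20107 in mucosa. That sum mainly reflects 1 gene, Cst3, with mean log2 signals of 13.81 in peri-implant tissue and 14.07 in mucosa, and is not read as gland content. The acinar genes Amy1, Bpifa2, Prb1, Smr3a and Car6 were dim in both, the water channel Aqp5 fell by 1.90, and Lpo, lactoperoxidase, was higher by 2.16. Airway-type secretory genes were higher in 2 of 3 tested (1 with that filter), at a sum of 3405 to 3494 in peri-implant tissue, against 231 to 354 in mucosa. Both calls came from Scgb1a1, a secretoglobin, and Cyp2f4, a cytochrome P450, while Foxj1, Muc5ac and Scgb3a1 were dim in both tissues. Cyp2f4 was dim in mucosa (mean log2 signal 3.13) and past the signal filter only through its peri-implant signal (10.86). Merkel cells carry Krt8, Krt18 and Krt20. Of their 10 listed genes 6 were dim in both tissues, among them Chga, Chgb, Gfi1 and Piezo2, the last with 1 of its 6 values at 0. The sum was 3178 to 3460 in peri-implant tissue, against 1762 to 2135 in mucosa. That sum mainly reflects Sox2, with mean log2 signals of 11.4 in peri-implant tissue and 10.7 in mucosa. Of 3 genes tested, Syp went the other way, with a difference of -0.998 and groups that did not overlap. It did not pass (limma adjusted p = 0.0533), but the list had 1 lower gene in 7 of 19 alternatives. The 2 higher genes were Sox2 (0.75) and Isl1 (2.43). Sox2 was not called with the mean of its probe sets (0.35, limma adjusted p = 0.559), and Isl1 gave no tested value there. Other cells also express both. Atoh1, the Merkel cell fate factor, had no probe set of its own and was not analysed here. Taste cell genes were higher in 0 of 3 tested and lower in 1, Entpd2 (-0.43), a call lost without the variance trend, with epithelial centring and without peri-implant array 2 or 3 or mucosal array 1 or 2. Their sum was 817 to 953 in peri-implant tissue and 776 to 945 in mucosa. Car4 of this list lay below the signal filter. Without the filter it was called higher, by 4.94 (limma adjusted p = 0.00107), and with the floor its difference was 0.87. Gnat3, the taste G protein, was dim in both tissues.

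The genes most like the changed members were those with the smallest root mean square distance between mean-centred log2 values over the 6 arrays. With 6 arrays in 2 groups this likeness mostly says that a gene changed by the same amount. For Krt4 they were Cd74, the MHC class II chaperone (distance 0.11), Sstr2, a somatostatin receptor (0.11), and Clec7a, a β-glucan receptor (0.14). Krt19 was closest to Apoe (0.06), Selenbp1 (0.07) and the chemokine receptor Cxcr4 (0.09), and Krt7 to the transcription factor Cebpd (0.06), Ceacam1 (0.07) and Abi3bp (0.08). For Krt23 they were Acp3 (0.08), Ighvl1 (0.10) and Elf3 (0.11). Ighvl1 was dim in mucosa (mean log2 signal 5.28) and past the signal filter only through its peri-implant signal (7.34). Ceacam1 and Elf3 were also on the list of simple and glandular epithelium genes, while Cd74 and Clec7a are known from leukocytes. The likeness of Sstr2 and Apoe belongs to 1 probe set, since the difference was 0.05 for the second probe set of Sstr2 and 0.05 for the mean of those of Apoe.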

How the data were processed

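Total RNA was labelled with a 3' expression kit and hybridised to 1 array per sample, per the labels' protocols. The deposited values were log2 signals, and on a linear scale every array had the same 2%-trimmed mean, 500.2, so the authors had scaled the arrays to a common level before they deposited them. The lowest value was 0, held by 150 to 382 probe sets per array. Neither software nor background method is given in the sources used here. Precision is limited by the 6 arrays.

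The table held 31099 probe sets, of which 57 were controls and left out. The platform annotation gave 1 symbol for 20832, several for 436 and none for 9780 others. By gene number 20764 matched RefSeq GRCr8. Where a gene had several probe sets, the brightest on average stood for it. Probe sets with a mean above the 40th percentile, 5.68, were tested (18625) with limma 3.58.1 in R 4.3.3 (lmFit, eBayes with a variance trend, two-sided) and adjusted over all of them by Benjamini-Hochberg. Differences are peri-implant minus mucosal, and every adjusted p of a gene is from that fit unless another setting is named. Pair log ratios used an exact permutation test. On simulated data the fit recovered 60% of 50 changed probe sets at a log2 difference of 0.5 and 78% at 1. It recovered 98% at 2 and 100% at 3, with 15 false calls among 18625 probe sets.

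The members and the 14 gene lists were chosen with earlier results of these data known. Of 212 list entries 162 matched a gene, and the synonym Krt6a was dropped after inspection. Genes were named by a rule: all members, up to 4 called genes with the smallest p in each list, a few defining genes, and the 3 nearest genes of each called member. Others, such as neighbouring and other keratins, dim markers and list members given as exceptions, were named after their values were seen. Alternatives covered the variance trend, filter, scaling, floor, pseudocount, probe set, array weights, replicate block and each array left out.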

Additional observations from a re-analysis of the deposited data

How the results depend on the processing

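Krt4, Krt7, Krt23 and Krt19 stayed higher and past the threshold under all 19 alternatives, 18 planned and 1 added later. Their differences ranged from 3.05 to 3.24, 2.03 to 2.24, 1.88 to 2.09 and 1.84 to 2.06, with the highest limma adjusted p at 7.88e-04, for Krt19. Krt8 and Krt20 passed under none (differences from -0.45 to -0.25 and from -0.55 to -0.23), and nor did Krt18 (-2.41 to -0.06). With the filter at the 60th percentile Krt8 and Krt18 gave no value. Each member had 1 probe set. The alternatives that took the second highest probe set or the mean of probe sets therefore used the same member signals. They could not change the members' differences and say nothing on how firm those are.

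The Krt13 difference of -0.0038 changed sign under quantile normalisation (0.19), array weights (0.0205) and centring on shared epithelial genes (0.11), and was -0.18 to 0.13 when 1 array was left out. The cause was not tested. The member median of 0.96 was 1.06 under quantile normalisation, 0.90 with arrays centred on the 75th percentile, 1.08 with centring on epithelial genes and 0.84 to 1.01 with 1 array left out. The Krt8 to Krt18 log ratio turned to -0.30 with the floor and was 0.19 to 2.03 with 1 array left out, and that of Krt7 to Krt19 was -0.0298 to 0.35 with 1 array left out. Krt25, with a difference of 0.19, was -0.0170 with array weights and -0.22 to 0.57 with 1 array left out, and Krt71 was 0.0665 with epithelial centring and -0.17 to 0.0369 with 1 array left out.

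Lower genes numbered 718 without the variance trend and 565 with epithelial centring, and lower probe sets 1287 and 956, against 1161 and 1945. The share of higher calls ran from 48.1% with the 75th percentile to 75.1% with epithelial centring. Leaving out the members, the pair ratios and the totals given above, 1772 comparisons were made for 94 other single genes and list counts. Of these, 1651 kept their direction and side, 43 lost and 7 gained a call, 4 turned sign and 67 moved by over 1.5 times. Higher leukocyte genes numbered 8 to 10.

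Same-numbered arrays of the 2 tissues did not deviate together (correlations 0.01, -0.08 and 0.03), so the numbers were not taken to pair samples. With the replicate block 1562 genes were higher and 1142 lower, and Krt4, Krt7, Krt23 and Krt19 kept their calls (limma adjusted p for Krt4 1.22e-10). Signal near the dim level limits Krt8 and Krt18. Whether the top of the array limits Krt13 and other bright keratins such as Krt10 and Krt14 was not tested.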
